A study of Rattus norvegicus with 10 samples.

Results

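The genes described here are 10 markers of tissue macrophages: C1qa, C1qb, C1qc, Csf1r, Cd68, Cd163, Itgam, Lyz2, Aif1 and Cd14. They were taken by symbol from the deposited expression table, in which each had 1 transcript, and they make 10 of its 17221 transcripts. All 10 members were among the 10259 transcripts that passed the filter on low values. The table covers muscle beneath the epidermis of female Wistar rats, all with collagen-induced arthritis (CIA), in which immunisation with bovine type II collagen leads to swollen, inflamed joints. Each of 10 rats gave 1 library, and the groups hold 2 libraries each. RA_0 was sampled before any therapy. AP_1h and AP_34d were sampled at 1 h and 34 days in animals given acupuncture (AP), a needle that is inserted through the skin and twirled. Animals given a placebo (PLA), a peritoneal injection of saline, made up PLA_1h and PLA_34d at those 2 times. The ages of the rats are not given in the sources used here. Tissue was taken around the stimulated points, so a piece holds muscle together with whatever skin, vessels and connective tissue came with it. No library from a rat without arthritis was analysed here.

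Macrophages are phagocytes that live in most tissues and are joined by monocytes from the blood when a tissue is injured or inflamed. In muscle they clear debris from damaged fibres, and populations that take up haemoglobin and iron follow bleeding. Their survival depends on signalling through the receptor tyrosine kinase CSF1R. They are also the main producers of C1q, the hexamer that recognises immune complexes and dying cells at the head of the classical complement pathway and that is built from the products of C1qa, C1qb and C1qc.

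The members have different roles. Csf1r encodes the receptor for CSF1 and IL34, and Cd163 the scavenger receptor that takes up haptoglobin-haemoglobin complexes. Cd68 encodes a glycoprotein of the lysosome and Lyz2 the lysozyme of phagocytes. Itgam encodes CD11b, an integrin chain that with ITGB2 forms complement receptor 3, Cd14 a co-receptor for lipopolysaccharide, and Aif1 the actin-binding protein also known as IBA1. Itgam, Lyz2 and Cd14 are also transcribed in monocytes and neutrophils, so none of these genes alone marks macrophages.

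C1qa, C1qc and C1qb lie next to each other on the minus strand of chromosome 5 in the rat build rn4, at chr5:155662333-155665180, chr5:155656104-155659430 and chr5:155647523-155653072. The gap between C1qa and C1qc was 2902 bases and that between C1qc and C1qb 3031 bases. The other members lie apart, with Cd163 at chr4:160394833-160428208 on the plus strand. Lyz2, at chr7:56607708-56613004, shares its position with a second placement of a transcript of its near copy Lyc2, and Aif1, at chr20:3714428-3716327, overlaps a transcript of Clic1 on the other strand. Reads that fit more than 1 transcript were dropped in the authors' counting and its use of strand is not stated, so the levels of Lyz2 and Aif1 are uncertain.

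RefSeq promoter windows of assembly GRCr8, from 250 bases before to 50 bases after the start of each gene, were at hand for 8 of the 10 members, all but C1qc and Aif1. They are shown for C1qa and C1qb, which lie on either side of C1qc, and for Cd163. Over the 10 libraries C1qa and C1qb had a Pearson r of 0.90, and Cd163 was the member with the lowest r to C1qb. The capitals mark GAGGAA on either strand, a form bound by the myeloid factor PU.1 (encoded by Spi1). Other forms bound by PU.1 were not searched for. C1qa lies at chr5:154419884-154420183 on the minus strand, C1qb at chr5:154407778-154408077 on the minus strand and Cd163 at chr4:158770524-158770823 on the plus strand.
C1qa: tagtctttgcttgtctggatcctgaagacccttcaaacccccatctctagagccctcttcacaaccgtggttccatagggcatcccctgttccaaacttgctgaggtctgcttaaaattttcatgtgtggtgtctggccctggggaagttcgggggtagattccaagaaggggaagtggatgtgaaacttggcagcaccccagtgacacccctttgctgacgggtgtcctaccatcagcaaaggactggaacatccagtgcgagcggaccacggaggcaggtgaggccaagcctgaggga
C1qb: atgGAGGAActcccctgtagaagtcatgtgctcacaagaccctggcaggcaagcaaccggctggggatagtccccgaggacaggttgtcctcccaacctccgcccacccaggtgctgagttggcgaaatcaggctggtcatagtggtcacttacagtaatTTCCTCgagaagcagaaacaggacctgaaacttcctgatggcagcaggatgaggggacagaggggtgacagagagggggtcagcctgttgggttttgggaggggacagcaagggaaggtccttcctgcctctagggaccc
Cd163: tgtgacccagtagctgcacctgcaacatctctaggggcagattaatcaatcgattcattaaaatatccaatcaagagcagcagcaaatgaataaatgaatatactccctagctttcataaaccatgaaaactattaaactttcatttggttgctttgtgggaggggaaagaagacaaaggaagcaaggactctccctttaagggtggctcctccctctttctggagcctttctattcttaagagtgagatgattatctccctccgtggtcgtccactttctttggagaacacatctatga
GAGGAA was found in 6 of the 8 member windows, C1qb, Csf1r, Cd68, Itgam, Lyz2 and Cd14, and in 27.6% of all 33469 windows of the same length. The windows of C1qa and Cd163 held none. TGANTCA, the form bound by AP-1, was found in the window of 1 member, Cd68, against 7.33% of all windows, and in none of the sequences shown. Such a match describes the letters of the window only.

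The values are CPM, counts per 1000000 reads, scaled by the authors with edgeR's TMM factors. The libraries held 5371687 to 8899521 counted reads, and 1 CPM stood for 4.19 to 10.1 reads. A floor of 3 reads, a chosen value, came to 0.297 to 0.716 CPM. PLA_34d replicate 1 stood apart: its summed level of 8 lymph node markers was 703 CPM against 23.9 to 74.0 CPM in the other 9 libraries, that of 8 T cell markers 203 CPM against 2.54 to 25.1, and that of the 6 B cell markers measured 296 CPM against 0.149 to 10.4. None of these markers was at 0 in that library. The labelled tissue was present in all libraries, with 9 fast and general skeletal muscle markers summing to 129688 to 351758 CPM, lowest in PLA_34d replicate 1. The members' median changes in comparisons with PLA_34d are given with and without this library. The shares of variation between groups, the counts of correlated pairs over all 10 libraries and the changes of the other lists are given only with it.

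**Figure D1:**
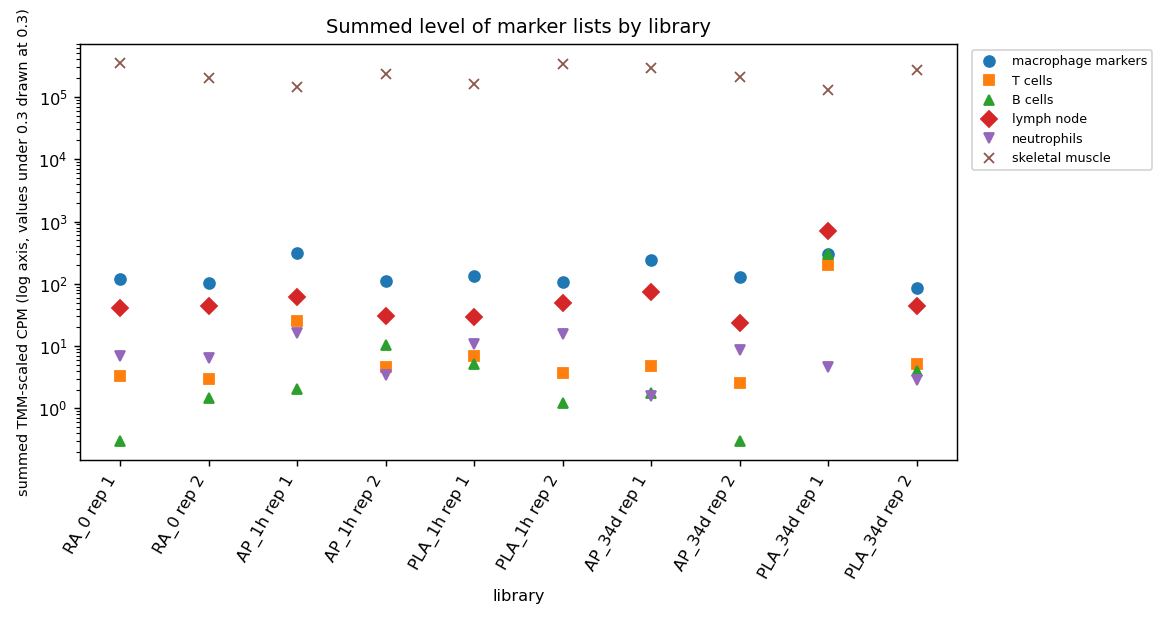
Summed TMM-scaled CPM (log axis) of the 10 macrophage markers and of 5 marker lists of other cells in each of the 10 libraries, 1 point per list and library. The lymph node, T cell and B cell lists are highest in PLA_34d replicate 1, whereas the macrophage markers are also high in AP_1h replicate 1 and AP_34d replicate 1.

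The sum of the 10 markers was 118 and 104 CPM in RA_0, 313 and 109 in AP_1h, 132 and 108 in PLA_1h, 241 and 129 in AP_34d and 303 and 87.1 in PLA_34d, replicate 1 first. The first replicate of AP_1h, AP_34d and PLA_34d stood above all other libraries. Both AP_34d libraries lay above both RA_0 libraries, and each of the other pairs of groups compared overlapped. As this is bulk RNA, more macrophages and more of these transcripts per macrophage cannot be told apart.

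The question of the comparison is which of the markers move together from library to library. AP_1h replicate 1 was among the 3 highest libraries for 10 of 10 members, PLA_34d replicate 1 for 9 and AP_34d replicate 1 for 7. PLA_34d replicate 2 was among the 3 lowest for 9 members. The C1q genes, Csf1r, Cd68 and Cd14 were each higher in all of these 3 libraries than in any of the other 7, and Cd163, Itgam, Lyz2 and Aif1 were not.

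**Figure D2:**
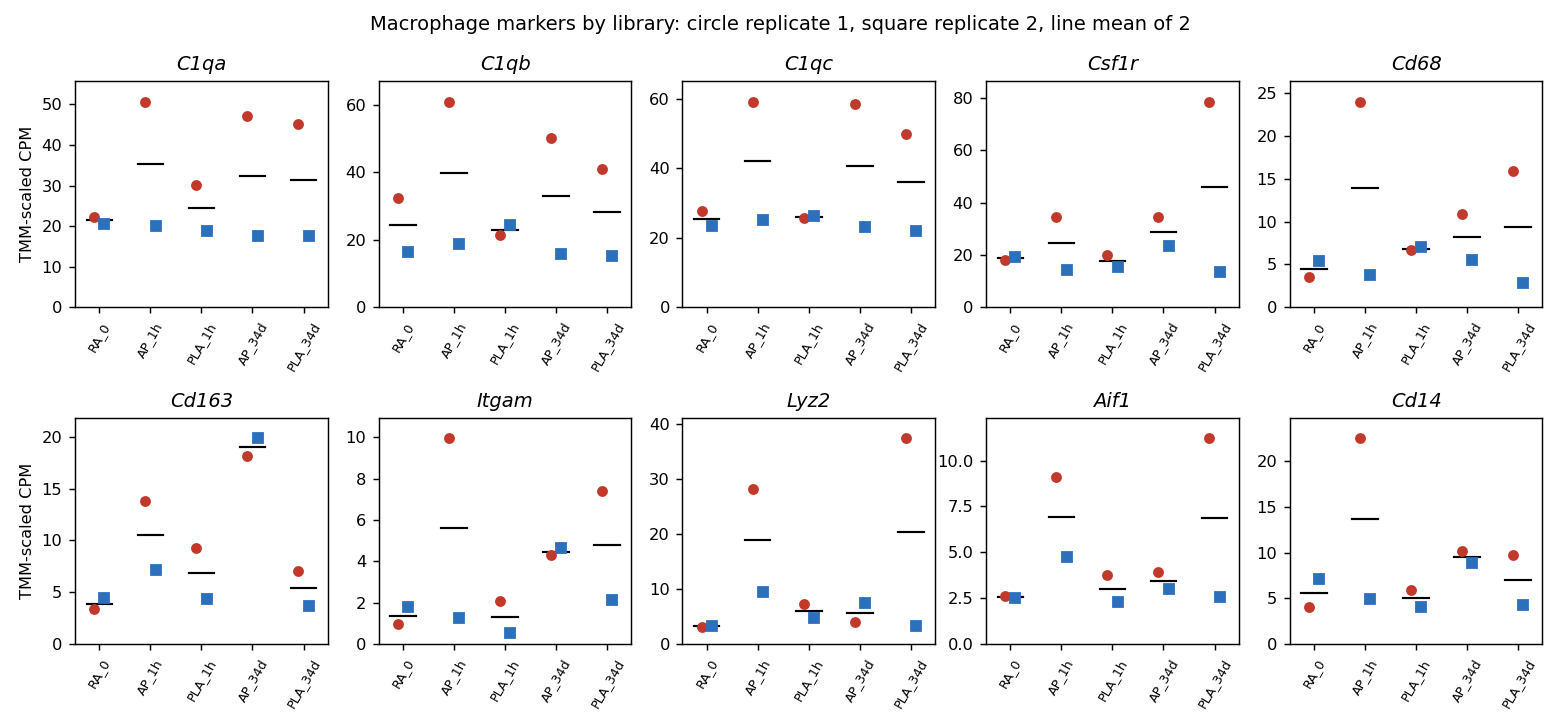
TMM-scaled CPM of each marker by group, with a circle for replicate 1, a square for replicate 2 and a line at the mean of 2. In AP_1h and PLA_34d replicate 1 lies above replicate 2 in all 10 panels, and Cd163 alone is highest in both libraries of AP_34d.

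C1qa was at 22.2 and 20.6 CPM in RA_0, 50.7 and 20.2 in AP_1h, 30.0 and 18.8 in PLA_1h, 47.1 and 17.6 in AP_34d and 45.1 and 17.6 in PLA_34d. C1qb was at 32.2 and 16.3 CPM in RA_0, 60.9 and 18.8 in AP_1h, 21.3 and 24.2 in PLA_1h, 50.2 and 15.7 in AP_34d and 41.1 and 15.1 in PLA_34d. C1qc was at 27.7 and 23.3 CPM in RA_0, 59.1 and 25.2 in AP_1h, 25.8 and 26.3 in PLA_1h, 58.4 and 23.0 in AP_34d and 49.9 and 22.0 in PLA_34d. All 3 genes were high in the same 3 libraries, 1 from each of 3 groups, and low in the partner of each, so the groups overlapped. In AP_1h the 95% exact Poisson intervals of the C1qa replicates, 46.2 to 55.5 CPM and 16.99 to 23.7 CPM, did not meet, so counting error alone did not span the gap between them. Such intervals cover counting error only.

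Over all 10 libraries the shares of the C1q subunits varied less than their sum. The sum was highest in the 3 libraries high for all of these genes. In the 7 other libraries it ran only from 54.7 to 82.1 CPM, and both ends of the range of C1qb over C1qa lay there. C1qa made 27.0% to 38.9% of the summed C1q level, C1qb 27.1% to 39.2% and C1qc 33.4% to 40.8% over the 10 libraries, while the sum itself ranged 3.12-fold, from 54.7 to 171 CPM. C1qb over C1qa ran from 0.710 in PLA_1h replicate 1 to 1.45 in RA_0 replicate 1, a 2.05-fold range, C1qc over C1qb spanned 1.71-fold and C1qc over C1qa 1.63-fold. These are shares of CPM, not per length, and are read only between libraries, not between genes.

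Csf1r was at 18.1 and 19.3 CPM in RA_0, 34.6 and 14.1 in AP_1h, 20.02 and 15.4 in PLA_1h, 34.4 and 23.3 in AP_34d and 78.5 and 13.6 in PLA_34d. It was high in the same 3 libraries as C1q, but PLA_34d replicate 1 was the highest of them by far, and the lowest library was its partner. As a ratio to the summed C1q level, read between libraries only, Csf1r came to 57.7% in PLA_34d replicate 1 and 20.3% to 41.4% elsewhere.

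Cd68 was at 3.58 and 5.35 CPM in RA_0, 24.0 and 3.78 in AP_1h, 6.64 and 7.02 in PLA_1h, 10.9 and 5.53 in AP_34d and 15.9 and 2.84 in PLA_34d. Both PLA_1h libraries lay above both RA_0 libraries, and all other groups overlapped with RA_0 or, for AP_34d, lay just above it.

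Cd14 was at 4.06 and 7.13 CPM in RA_0, 22.5 and 4.90 in AP_1h, 5.95 and 4.04 in PLA_1h, 10.2 and 8.81 in AP_34d and 9.76 and 4.26 in PLA_34d. Itgam was at 0.954 and 1.78 CPM in RA_0, 9.95 and 1.26 in AP_1h, 2.08 and 0.526 in PLA_1h, 4.30 and 4.63 in AP_34d and 7.40 and 2.13 in PLA_34d. Both genes peaked in AP_1h replicate 1, and in both the libraries of AP_34d were close together and above those of RA_0. Itgam is the least sampled member: the value in PLA_1h replicate 2 rests on 3 reads, with a 95% exact Poisson interval of 0.109 to 1.54 CPM.

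Lyz2 was at 3.10 and 3.27 CPM in RA_0, 28.2 and 9.38 in AP_1h, 7.24 and 4.74 in PLA_1h, 3.91 and 7.47 in AP_34d and 37.4 and 3.27 in PLA_34d. Aif1 was at 2.62 and 2.53 CPM in RA_0, 9.08 and 4.76 in AP_1h, 3.77 and 2.28 in PLA_1h, 3.91 and 2.99 in AP_34d and 11.2 and 2.56 in PLA_34d. Both were highest in PLA_34d replicate 1 and next in AP_1h replicate 1, and AP_34d replicate 1 was not among the 3 highest libraries of either gene. The near copy Lyc2 gave 15.5 and 16.6 CPM in RA_0, 137 and 39.7 in AP_1h, 24.2 and 14.2 in PLA_1h, 28.7 and 20.02 in AP_34d and 116 and 12.4 in PLA_34d, with the same pair of libraries on top.

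Cd163 was at 3.34 and 4.46 CPM in RA_0, 13.8 and 7.14 in AP_1h, 9.32 and 4.39 in PLA_1h, 18.2 and 19.9 in AP_34d and 7.07 and 3.70 in PLA_34d. Both AP_34d libraries lay above all 8 others, and both AP_1h libraries above both RA_0 libraries. The 2 AP_34d libraries that were nearly equal for Cd163 differed 2.67-fold for C1qa. As a ratio to the summed C1q level Cd163 came to 11.7% and 35.3% in AP_34d and to 4.07% to 12.1% in the other groups. PLA_34d replicate 1, the highest library for Csf1r, Lyz2 and Aif1, was close to the median for Cd163, which was 7.10 CPM over the 10 libraries.

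**Figure D3:**
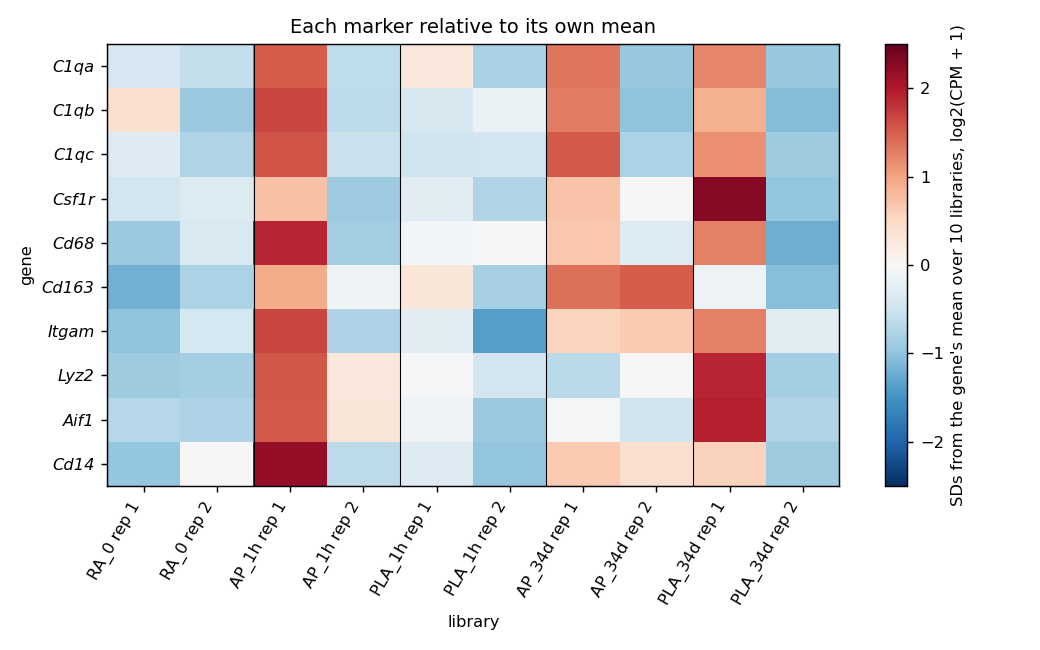
Level of each marker (rows) in each library (columns) as SDs from that gene's own mean of log2(CPM + 1), blue below and red above that mean. AP_1h replicate 1 is red in every row, AP_34d replicate 1 most strongly in the C1q rows and Cd163, and AP_34d replicate 2 is darkest in Cd163.

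The spread between replicates was large beside that of the table as a whole. The replicate SD of log2(CPM + 1) ran from 0.49 for Cd163 to 1.15 for Lyz2, against a median of 0.39 over all transcripts tested. Replicate 1 was the higher for all 10 members in AP_1h, by 1.91- to 7.90-fold with a median of 2.76, and for all 10 in PLA_34d, by 1.91- to 11.4-fold with a median of 3.10. In RA_0 it was the higher for 4 members, with a median ratio of 0.944, in PLA_1h for 7 and in AP_34d for 7. Differences between groups made 81.2% of the variation of Cd163 over the libraries, against 9.63% for C1qb, 12.6% for C1qa, 20.7% for C1qc, 16.3% for Cd68, 22.0% for Csf1r, 34.5% for Cd14, 45.2% for Lyz2, 45.3% for Itgam and 46.4% for Aif1. The median over all transcripts tested was 42.4%, with the 10th and 90th percentiles at 17.5% and 73.7%.

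In the order of the group means of CPM AP_1h came first for 7 members, PLA_34d for Csf1r and Lyz2, and AP_34d for Cd163. By the mean of log2(CPM + 1), the scale of the fit, AP_1h came first for Lyz2 (4.12 against 3.68 in PLA_34d) and AP_34d for Itgam (2.45 against 2.36 in PLA_34d), and the first group of the 8 other members was the one first in CPM. Of the 4 neighbouring pairs in the order by CPM, none was separated in its libraries for C1qa, C1qb, C1qc, Csf1r, Aif1 and Cd14. For Cd68 PLA_1h lay above RA_0, for Itgam AP_34d above RA_0, for Cd163 AP_34d above AP_1h, and for Lyz2 both AP_1h above PLA_1h and AP_34d above RA_0.

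Over the 45 pairs of members, the Pearson r of log2(CPM + 1) across the 10 libraries had a median of 0.74 and was positive in 45. By a 2-sided permutation test, 33 pairs had an adjusted p under 0.05 for Pearson's r and 6 for Spearman's rho, whose median was 0.62, with Benjamini-Hochberg adjustment over the 45 pairs. The libraries fall into the 3 that were high for most members and the 7 others. The 3 were picked for high C1q in these same values, so leaving them out narrows the range of the members, which alone can lower r. Over the 7 other libraries the median r was 0.19, 31 pairs were positive, and by an exact permutation test 1 pair had an adjusted p under 0.05 and 6 an unadjusted p under 0.05. Without the 2 libraries farthest from the median of the first gene of each pair the median r was 0.66 and 42 pairs were positive. After the group means were removed the median r was 0.81 and all 45 pairs were positive. All 10 members differed in 1 direction between the replicates of AP_1h and of PLA_34d. In the other groups they did not, with replicate 1 the higher for 4 members in RA_0 and for 7 in PLA_1h and in AP_34d. All values of a pair come from the same libraries and share their depth and scaling.

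The pair that held in the 7 other libraries was C1qb and C1qc, with r = 0.95 and an exact permutation adjusted p of 0.0179. Over all 10 libraries this pair had r = 0.95 and rho = 1.00, with adjusted permutation p of 0.00045 (from the smallest p that 100000 permutations can give) and 0.0009, and r = 0.88 without the 2 farthest libraries. The pairs of C1qa with C1qb and with C1qc had r = 0.90 and 0.95 over all libraries, against 0.41 and 0.51 in the 7 others.

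Over the 10 libraries the r of Cd163 with the other 9 members had a median of 0.49, against 0.77 for the 36 pairs without Cd163, and ran from 0.35 with C1qb to 0.71 with Cd14, and 2 of the 9 pairs, with Itgam and Cd14, had an adjusted permutation p under 0.05. Without the 2 farthest libraries the medians were 0.71 for the pairs with Cd163 and 0.65 for those without. There the first gene of a pair set which libraries were left out, so the pairs do not share their libraries. The r of Cd163 was then 0.08 with C1qa, -0.22 with C1qb and -0.0026 with C1qc, and 0.63 to 0.80 with the others. These 2 medians therefore do not tell whether the order held. In the 7 other libraries it did not, with medians of 0.44 for the pairs with Cd163 and 0.15 for those without. In those 7 its r was 0.78 with Cd14, 0.77 with Lyz2 and 0.76 with Itgam, and -0.40 with C1qb, -0.25 with C1qc and 0.04 with C1qa, all with an adjusted p of 0.287 or more by the exact permutation test. After the group means were removed, r between Cd163 and the other members had a median of 0.76, with 0.94 for Itgam, and that over the 36 pairs without Cd163 a median of 0.81. Such deviations rest on 5 pairs of replicates, 1 per group. The replicate higher for Cd163 was also the higher for 9 of the 9 other members in AP_1h and in PLA_34d, for 6 in PLA_1h and for 5 in RA_0. In AP_34d, where Cd163 was highest, it was the higher for 2 of the 9, Itgam and Lyz2.

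**Figure D4:**
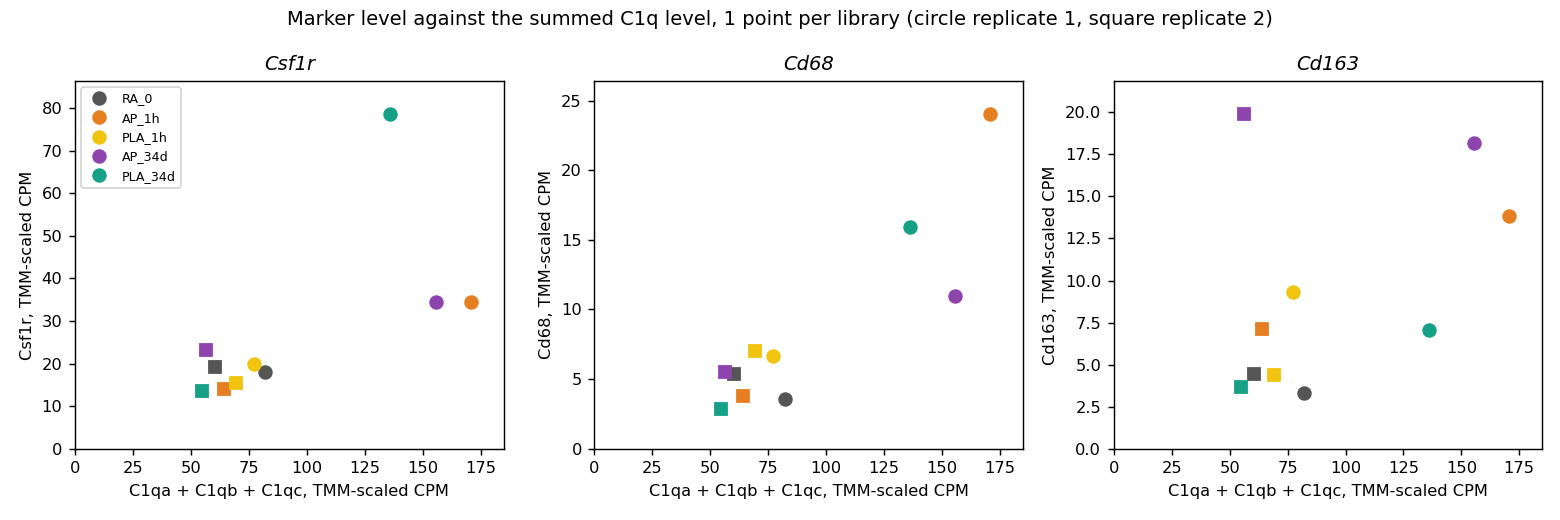
TMM-scaled CPM of Csf1r, Cd68 and Cd163 against the summed CPM of C1qa, C1qb and C1qc, with 1 point per library, colour for the group and a circle or square for replicate 1 or 2. The 3 libraries with a C1q sum of 136 to 171 CPM are also the highest for Csf1r and Cd68, whereas Cd163 is as high in AP_34d replicate 2, at a C1q sum of 56.3 CPM, as in AP_34d replicate 1.

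The other markers that belong to these pathways and cell types followed the same libraries in part. Across the 10 libraries the transcripts outside the members most like the mean of their standardized levels were Pld4 (r = 0.95), Efhd2 (0.93), Tyrobp (0.93), Itgb2 (0.92), Ptafr (0.92), MGC112715 (0.92), Unc93b1 (0.92), Ccl24 (0.91), Ctss (0.91) and Tnfaip8l2 (0.91), ranked by Pearson's r as a description. Tyrobp encodes an adaptor of myeloid receptors, Itgb2 the partner chain of CD11b, and Ctss cathepsin S of antigen-presenting cells. Itgb2 was at 2.62 and 3.56 CPM in RA_0, 28.3 and 5.74 in AP_1h, 6.64 and 2.11 in PLA_1h, 7.23 and 8.37 in AP_34d and 46.7 and 2.27 in PLA_34d. Its groups overlapped in AP_1h against PLA_1h and in PLA_34d against RA_0, and the highest libraries were PLA_34d replicate 1 and AP_1h replicate 1.

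For neutrophils, the other cells that transcribe Itgam, Lyz2 and Cd14, the 11 markers summed to 1.56 to 16.2 CPM, with Fpr1 and Np4 at 0 in all 10 libraries and Elane at 0 in 9. Their sum was 16.2 CPM in AP_1h replicate 1, 1.56 in AP_34d replicate 1 and 4.60 in PLA_34d replicate 1, the highest, the lowest and an intermediate value of the 10. The markers did not move as 1 list: S100a9, the most abundant, was at 9.95, 1.37 and 0.561 CPM in those 3 libraries, whereas Mmp8 and Mpo were highest in PLA_34d replicate 1, at 1.0 and 0.561 CPM. The 8 pan-leukocyte markers summed to 174 CPM in AP_1h replicate 1, 87.7 in AP_34d replicate 1 and 860 in PLA_34d replicate 1, against 57.3 to 83.0 in the 7 others. The skeletal muscle markers were lowest in PLA_34d replicate 1 (129688 CPM) and AP_1h replicate 1 (144461 CPM), and AP_34d replicate 1 had 295603 CPM. The 6 slow fibre markers summed to 19952 and 10055 CPM in RA_0, 972 and 1120 in AP_1h, 4173 and 1840 in PLA_1h, 11136 and 1889 in AP_34d and 19882 and 1702 in PLA_34d, so that both AP_1h libraries were low beside RA_0. The ribosomal RNA transcript Rn45s summed to 1809 CPM in PLA_34d replicate 1 and to 2704 to 17423 CPM elsewhere. The part of these in the levels of the members was not tested.

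Marco and Siglec1, receptors of macrophages in lymph node and spleen, moved with PLA_34d replicate 1. Marco was at 26.0 CPM there, at 0.284 CPM in its partner, at 0.140 CPM in AP_1h replicate 2 and at 0 in the other 7 libraries. Siglec1 was at 72.1 CPM there and at 1.05 to 6.59 CPM in the 9 other libraries. Other genes of their list were mixed there, with Lyve1 at 29.5 CPM, Mrc1 at 22.0, Folr2 at 6.39, Pf4 at 3.37 and Msr1 at 0.224. In AP_34d replicate 1 these were at 28.5, 27.5, 7.23, 5.86 and 0.586 CPM. The high Csf1r, Lyz2 and Aif1 of PLA_34d replicate 1 stood beside high lymph node markers, and the part of these in their levels was not tested.

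Acupuncture at 1 h was compared with the arthritic animals before therapy to ask for early changes. In AP_1h all 10 members had a positive log2 change against RA_0, with a median of 0.95, against 0.00 over all transcripts tested, of which 50.1% were positive. By limma with Benjamini-Hochberg adjustment over all transcripts, 0 of 10 members were called, against 0.0292% of all transcripts (3 of 10259). At an unadjusted p under 0.05 there were 2 members, and limma-voom, edgeR and DESeq2 also called 0. Cd163 had a log2 change of 1.18 ± 0.45 (SE, n = 2 against 2) with a limma adjusted p of 0.482, and Lyz2 2.06 ± 0.86 with a limma adjusted p of 0.531. Both met the study's rule, an unadjusted p under 0.05 with at least a 2-fold change and a mean of at least 1 CPM. In the upward direction 2.53% of all transcripts met it. The study applied these cut-offs to limma-voom and they are applied here to the limma fit, so the genes that meet them can differ. The libraries did not overlap for 3 members, Cd163, Lyz2 and Aif1, against 20.6% of all transcripts that lay higher without overlap. With AP_1h replicate 1 left out the median change was -0.064 and with replicate 2 left out 1.55, so the direction rests on replicate 1. The slow fibre markers moved with this comparison: 6 of 6 met the study's rule downward, with a median log2 change of -3.62, against 3.59% of all transcripts in that direction and 0 called by limma, and their part in the values of the members was not tested.

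For acupuncture at 34 days against RA_0, all 10 members again had a positive log2 change, with a median of 0.60 against -0.01 over all transcripts, of which 49.3% were positive. The median was 0.29 without AP_34d replicate 1 and 1.097 without replicate 2. limma called 0 of 10 members and 0% of all transcripts (1 member at an unadjusted p under 0.05), and limma-voom and edgeR also called 0. Cd163 had a log2 change of 2.04 ± 0.45 with an unadjusted p of 0.00105 and a limma adjusted p of 0.595, from a mean of 3.90 ± 0.789 CPM (SD, n = 2) to 19.0 ± 1.205 CPM. DESeq2 called it, with a log2 change of 2.26 and an adjusted p of 0.0337, and called 0.349% of the transcripts to which it gave an adjusted p (33 of 9463). Over all alternatives the change ran from 1.55 to 2.26 and the adjusted p from 0.0337 to 1.00. Itgam followed with 1.23 ± 0.72 and a limma adjusted p of 0.967. Cd163 was the 1 member that met the study's rule, against 1.49% of all transcripts in that direction. The libraries did not overlap for 7 members, Csf1r, Cd68, Cd163, Itgam, Lyz2, Aif1 and Cd14, against 16.4% of all transcripts that lay higher without overlap, and overlapped for the C1q genes. The smallest of these 7 log2 changes was 0.31 for Aif1, below its standard error of 0.55.

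For the placebo at 1 h against RA_0, 6 members had a positive log2 change, and the median was 0.09, against -0.01 over all transcripts. Without PLA_1h replicate 1 the median was -0.037 and without replicate 2 it was 0.41, so its direction rests on replicate 1, and with RA_0 replicate 1 or 2 left out it was 0.18 or 0.14. limma called 0 of 10 members and 0% of all transcripts, with 0 members at an unadjusted p under 0.05, and limma-voom, edgeR and DESeq2 called 0. Cd163 had 0.62 ± 0.45 and Lyz2 0.72 ± 0.86, each with a limma adjusted p of 1.00. None met the study's rule, against 0.994% of all transcripts in the upward direction, and the libraries of 2 members, Cd68 and Lyz2, lay higher without overlap, against 15.8% of all transcripts.

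For the placebo at 34 days against RA_0, all 10 log2 changes were positive with a median of 0.48, against -0.01 over all transcripts. limma called 0 of 10 members and 0% of all transcripts, with 0 members at an unadjusted p under 0.05, and limma-voom, edgeR and DESeq2 called 0. Lyz2 had 1.61 ± 0.86 and Aif1 0.88 ± 0.55, each with a limma adjusted p of 0.914. None met the study's rule, against 1.98% of all transcripts in the upward direction, and the libraries of 2 members, Itgam and Lyz2, lay higher without overlap, against 16.8%. Without PLA_34d replicate 1 the median change was -0.23, that of Lyz2 0.03 and that of Aif1 -0.0063. Without its partner, PLA_34d replicate 2, the median was 1.35, and limma called Lyz2 with a log2 change of 3.20 and an adjusted p of 0.0321. In that fit, in which the library with lymph node markers alone stood for PLA_34d, limma called 1.57% of all transcripts (161 of 10259).

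Acupuncture against placebo at 1 h compares the therapies at 1 time. All 10 log2 changes were positive with a median of 0.56, against 0.01 over all transcripts, and the median was -0.025 without AP_1h replicate 1, 1.37 without replicate 2 and 0.88 without PLA_1h replicate 1. limma called 0 of 10 members and 0% of all transcripts, with 0 members at an unadjusted p under 0.05, and limma-voom, edgeR and DESeq2 called 0. Aif1 had 0.95 ± 0.55 and Itgam 1.197 ± 0.72, each with a limma adjusted p of 1.00. None met the study's rule, against 0.975% of all transcripts in the upward direction. The libraries of 2 members, Lyz2 and Aif1, lay higher without overlap, against 13.9%.

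At 34 days 7 members had a positive log2 change of AP against PLA, with a median of 0.11 against 0.00 over all transcripts. limma called 0 of 10 members and 0% of all transcripts (1 member at an unadjusted p under 0.05), and limma-voom, edgeR and DESeq2 called 0. Cd163 stood out with 1.70 ± 0.45, an unadjusted p of 0.00352 and a limma adjusted p of 0.846, from 5.38 ± 2.38 CPM (SD, n = 2) in PLA_34d to 19.0 ± 1.205 CPM in AP_34d. Without PLA_34d replicate 1 its change was 2.09 and without replicate 2 it was 1.31. It was the 1 member to meet the study's rule, against 1.38% of all transcripts, and the 1 member whose libraries lay higher without overlap, against 16% of all transcripts. Lyz2 had -0.99 ± 0.86 with a limma adjusted p of 0.918, and 0.59 without PLA_34d replicate 1. The median over the members was 0.83 without PLA_34d replicate 1 and -0.62 without replicate 2, and -0.50 and 0.57 without AP_34d replicate 1 and 2.

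Averaged over both times, AP against PLA gave 10 positive log2 changes with a median of 0.33 against -0.01 over all transcripts, and 0 of 10 members called by limma against 0% of all transcripts (1 member at an unadjusted p under 0.05), by limma-voom, by edgeR or by DESeq2. The median was 0.78 without PLA_34d replicate 1, 0.71 without AP_1h replicate 2 and 0.59 without AP_34d replicate 2. It was -0.043 without PLA_34d replicate 2, -0.0324 without AP_1h replicate 1 and 0.099 without AP_34d replicate 1, so its direction rests on single libraries. Cd163 had 1.13 ± 0.32 with a limma adjusted p of 0.605 and Cd14 0.73 ± 0.43 with a limma adjusted p of 0.917. The interaction of therapy and time, the AP against PLA difference at 34 days minus that at 1 h, was negative for 9 members with a median of -0.46, against 0.02 over all transcripts, and positive for Cd163 at 1.14 ± 0.64. limma called 0 of 10 members and 0% of all transcripts for it, with 0 members at an unadjusted p under 0.05, and limma-voom, edgeR and DESeq2 called 0. Lyz2 had -2.33 ± 1.21 and Aif1 -1.52 ± 0.78, each with a limma adjusted p of 1.00, and the median was 0.21 without PLA_34d replicate 1 and 0.22 without AP_1h replicate 1. The F test over the 5 groups called 0 of 10 members and 0% of all transcripts, with Cd163 at an unadjusted p of 0.00815 and a limma adjusted p of 0.675. The comparisons with RA_0 share its 2 libraries, so their values stand side by side and are not independent of each other.

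**Figure D5:**
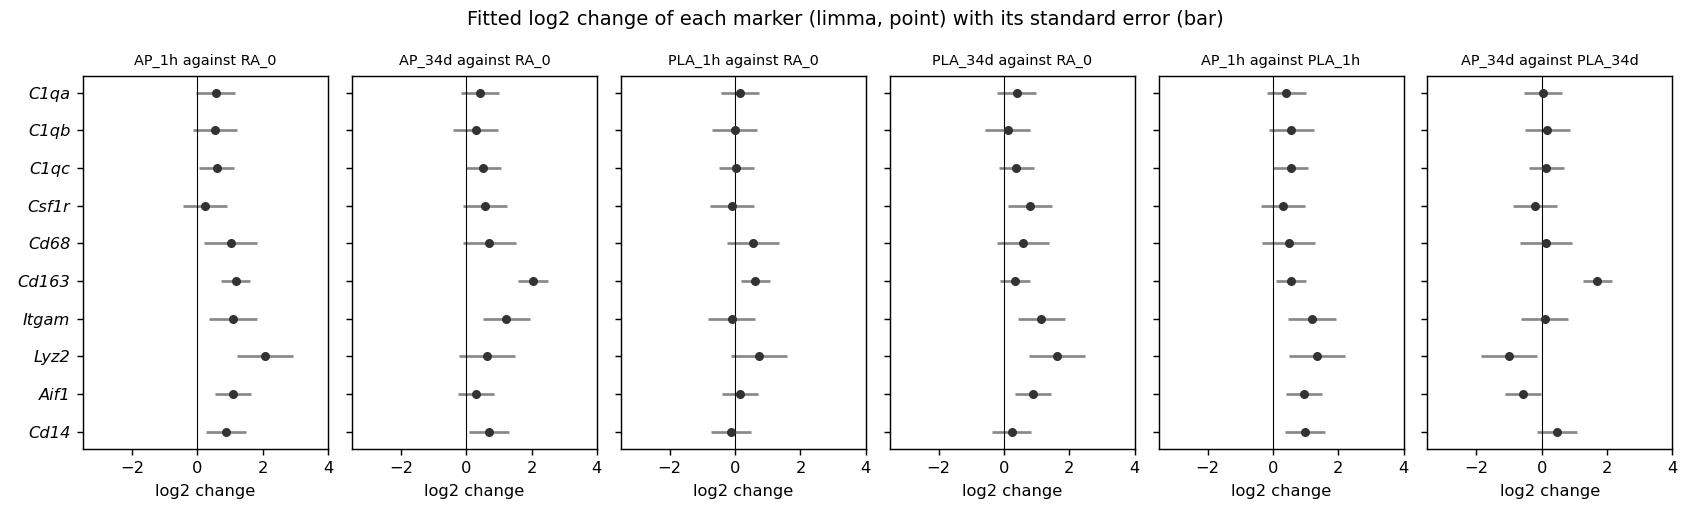
Fitted log2 change of each marker in the 6 pairs of groups, with the limma estimate as a point and its standard error as a bar. Cd163 lies at 2.04 in AP_34d against RA_0 and at 1.70 in AP_34d against PLA_34d, and the C1q genes lie within 0.59 of 0 in all 6 panels.

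The lists of related genes were read in the same fit, with the share of all transcripts meeting the study's rule as given above. Of 7 tested genes of resident and scavenging macrophages, 2 met that rule upward in AP_1h against RA_0 and 2 in AP_34d against RA_0, in each case Mrc1 and Clec10a, and 0 were called by limma. In AP_34d against PLA_34d 1 met it upward, Clec10a, and 1 downward, Siglec1. Mrc1, the mannose receptor, was at 6.92 and 10.69 CPM in RA_0, 36.1 and 19.3 in AP_1h, 20.6 and 10.71 in PLA_1h, 27.5 and 21.1 in AP_34d and 22.0 and 10.8 in PLA_34d. Clec10a, a lectin of the same cells, was at 7.16 and 6.98 CPM in RA_0, 34.4 and 13.2 in AP_1h, 15.5 and 6.32 in PLA_1h, 19.5 and 17.5 in AP_34d and 5.61 and 6.40 in PLA_34d. For Mrc1 all 4 treated groups lay above RA_0 without overlap, the placebo groups by a narrow margin in replicate 2. For Clec10a AP_1h and AP_34d lay above RA_0, as did 20.6% and 16.4% of all transcripts, and PLA_1h and PLA_34d did not. Clec10a also lay higher in AP_34d than in PLA_34d, by 1.48 ± 0.49 on the log2 scale at a limma adjusted p of 0.846.

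Of 8 tested genes that handle haemoglobin and iron, the cargo of CD163, 1 met the study's rule upward in AP_34d against RA_0 and 1 in AP_34d against PLA_34d, both times Hmox1, the haem oxygenase, and 0 were called. In AP_34d against RA_0 1 met it downward, Tfrc, the transferrin receptor, at -1.82 ± 0.64 with a limma adjusted p of 0.967, against 1.33% of all transcripts in that direction, and the median of the 8 was -0.34. Hmox1 was at 4.29 and 15.4 CPM in RA_0, 43.3 and 10.6 in AP_1h, 23.1 and 15.97 in PLA_1h, 40.4 and 74.2 in AP_34d and 16.2 and 13.2 in PLA_34d. Its AP_34d libraries lay above those of RA_0 and PLA_34d without overlap, like those of Cd163, at a log2 change of 2.58 ± 0.66 against RA_0 with a limma adjusted p of 0.801. The 6 red blood cell markers measured summed to 518 and 358 CPM in AP_34d, against 628 and 274 CPM in RA_0 and 226 and 401 CPM in PLA_34d, with overlap.

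Of 11 tested lysosomal genes of phagocytes, 3 met the rule upward in AP_1h against RA_0 (Gpnmb, Ctsl1 and Ctss), 2 in AP_34d against RA_0 (Ctsl1 and Gpnmb) and 3 in AP_34d against PLA_34d (Ctsl1, Lgmn and Gpnmb) and 1 in PLA_1h against RA_0 (Gpnmb), with 0 called by limma. Gpnmb, a glycoprotein of late phagosomes, was at 9.54 and 8.61 CPM in RA_0, 510 and 34.6 in AP_1h, 88.2 and 47.6 in PLA_1h, 78.1 and 127 in AP_34d and 19.1 and 6.68 in PLA_34d. RA_0 and PLA_34d were low in both libraries, and AP_1h replicate 1 stood far above its partner. Ctsl1, cathepsin L, was at 148 and 176 CPM in RA_0, 867 and 230 in AP_1h, 348 and 412 in PLA_1h, 598 and 938 in AP_34d and 107 and 234 in PLA_34d, with AP_34d above RA_0 and PLA_34d without overlap.

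Of 8 tested complement and Fc receptors and their adaptors, 3 met the rule upward in AP_1h against RA_0, Fcgr1a (1.31 ± 0.48), Tyrobp (1.58 ± 0.65) and Fcgr3a (1.13 ± 0.48 on the log2 scale), with limma adjusted p of 0.462, 0.528 and 0.531. In AP_34d against RA_0 1 did, the inhibitory receptor Fcgr2b, at 1.98 ± 0.78 with a limma adjusted p of 0.967. In the list of the classical complement cascade and its regulators, in which C4-2 and Cd59 had more than 1 transcript, 10 transcripts were tested. C3 was the 1 that met the rule in AP_1h against RA_0, at 2.02 ± 0.84 with a limma adjusted p of 0.531. The proteases that join C1q followed it in part: C1r was at 138, 95.3 and 85.6 CPM in the 3 libraries high in C1q and at 40.5 to 73.8 CPM in the others. C1s was at 111, 68.2 and 107 CPM in those 3 and at 24.3 to 71.4 CPM in the others, with overlap.

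Of the ligands of CSF1R and the myeloid transcription factors, 10 were tested, and Maf and Runx1 met the rule upward in AP_1h against RA_0, at 1.09 ± 0.38 and 2.05 ± 0.78 with limma adjusted p of 0.433 and 0.476. Runx1 also met it in AP_34d against RA_0, in AP_34d against PLA_34d and in PLA_1h against RA_0. The ligand Csf1 was at 15.98 and 30.7 CPM in RA_0, 43.7 and 21.0 in AP_1h, 19.6 and 16.3 in PLA_1h, 20.7 and 53.5 in AP_34d and 30.8 and 14.9 in PLA_34d, with overlap between all groups but PLA_1h and each acupuncture group. Spi1, which encodes PU.1, was at 1.91 and 1.63 CPM in RA_0, 9.41 and 1.68 in AP_1h, 3.47 and 3.51 in PLA_1h, 4.69 and 3.14 in AP_34d and 10.7 and 3.13 in PLA_34d. The same pair of libraries, AP_1h replicate 1 and PLA_34d replicate 1, was highest for Spi1 as for Lyz2 and Aif1. Of 7 tested genes of the lipopolysaccharide receptor pathway around CD14, 0 met the rule in any pair of groups, and Ly96, which encodes its partner MD-2, was at 0 to 0.865 CPM.

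In the list of lipid-associated and foam macrophages, 1 of 9 tested genes was called, in AP_1h against RA_0. There limma called 0.0292% of all transcripts (3 of 10259), and this gene had the smallest adjusted p of all. The lists were chosen with earlier results of these data known, so the call is no result about the list as a whole. Cst7, which encodes the cystatin F of immune cells, rose in AP_1h against RA_0 by 5.21 ± 0.57 on the log2 scale, with a limma adjusted p of 0.0358. It was at 5.01 and 13.96 CPM in RA_0, 416 and 293 in AP_1h, 81.4 and 23.2 in PLA_1h, 22.1 and 17.3 in AP_34d and 10.3 and 13.5 in PLA_34d. Both AP_1h libraries lay above all others, and unlike for the members the replicates of AP_1h were close. In this list Mmp12 (2.36 ± 0.55, limma adjusted p of 0.233) and Lgals3 (1.09 ± 0.47, limma adjusted p of 0.541) also met the study's rule in that comparison. In AP_1h against PLA_1h Cst7, Mmp12 and Lgals3 met it upward and Cd36, a receptor for fatty acids, downward, at -1.02 ± 0.44 with a limma adjusted p of 1.00, in AP_34d against PLA_34d Lgals3 and Spp1 upward, and in PLA_1h against RA_0 Cst7 upward. Of 6 tested monocyte genes 1 met it in AP_1h against RA_0, Ccr2 at 1.32 ± 0.57 with a limma adjusted p of 0.546.

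Genes of the remaining lists met the study's rule as follows, with none called by limma. In PLA_34d against RA_0 Coro1a and Lcp2 of the pan-leukocyte list, Lck and Cd2 of T cells, Ms4a1 of B cells, Flt3 of dendritic cells and Glycam1 and Cxcl13 of lymph node were higher, beside Adipoq and Lep of adipocytes. In AP_34d against PLA_34d Cd2, Ms4a1, Glycam1 and Ltb were lower, as were Lep and Siglec1, the receptor described above. These comparisons hold the PLA_34d library with lymph node markers. In AP_1h against RA_0 Cxcl13 was higher, at 3.43 ± 1.05 on the log2 scale with a limma adjusted p of 0.341, and Cdh5 of endothelium lower, at -1.21 ± 0.42 with a limma adjusted p of 0.424. In AP_1h against PLA_1h Cxcl13 and Col3a1 of fibroblasts were higher and Adipoq and the muscle myosin Myh1 lower. Of the slow fibre markers, Myl3, Tnni1, Tnnc1 and Myl2 led by p in AP_1h against RA_0, and Myl3 and Myl2 were also lower in PLA_1h against RA_0. The upward share of all transcripts is given above for each comparison, and the downward share was 0.673% in PLA_1h against RA_0, 1.65% in AP_1h against PLA_1h and 2.18% in AP_34d against PLA_34d.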

How the data were processed

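RNA was measured in 10 libraries of muscle from 10 rats. According to the submitters' processing notes and the paper's methods, the authors trimmed reads with cutadapt 1.2.1 after CASAVA 1.8.2, aligned them to the rat build rn4 with Bowtie2 2.1.0 and counted them per transcript with HTSeq 0.5.4p3 (intersection-nonempty). Whether counting used strand is not stated. The authors deposited a signal per transcript: counts per 1000000 reads scaled with edgeR 3.4.2's TMM factors, from which whole reads could be recovered for 100% of values within 0.01 reads. Depth was 5371687 to 8899521 counted reads per library, which sets the counting error of each value.

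Coordinates start at 0 in the table and are given from 1. The members and gene lists were chosen with earlier results of these data known. Each member and the genes of the other lists that were called or met the study's rule are named, up to 4 per list and comparison, except for a gene that is not reported here. The filter asked for 1 CPM or more in each library of any 1 group, and the 10259 transcripts left were tested as log2(CPM + 1), so changes of low transcripts are understated, with limma 3.58.1 (R 4.3.3; eBayes with a mean trend, 1 mean per group over all libraries), Benjamini-Hochberg adjusted p under 0.05. The 10 rats are separate animals. With 2 against 2, an exact permutation test cannot go below p = 0.333, so none is given per gene. Correlations used 100000 permutations, or all orders for 7 libraries (Python 3.11.15, scipy 1.17.1). The fit was tested on simulated counts. As alternatives, limma-voom, edgeR 4.0.16 and DESeq2 1.42.0 were run on the recovered reads, and the pseudocount (0.25 or 4), the filter (none, or 5 CPM on average), the scaling (4 others), the mean trend, a replicate block and the libraries fitted (the pair alone, or each left out) were changed in turn. Summing transcripts per symbol, summing Lyz2 with Lyc2 and leaving out the 3 libraries high in C1q were chosen after seeing the data.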

Additional observations from a re-analysis of the deposited data

How the results depend on the processing

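Over 40 results and 1024 alternative values, 988 counted as the same. The change of a single gene had to keep its direction and side of the threshold, and a count had to stay near the main one. A median log2 change had to move by less than 0.743, the spread between replicates of the members' mean. A change of sign could thus count as the same, as in AP_34d against PLA_34d, where the median ran from -0.62 to 0.83. The median r was judged by its spread with a library left out. The cause of the values that moved was not tested. The replicate numbers were not read as pairs of samples. Deviations of same-numbered libraries correlated at -0.46 to 0.45 between groups, which cannot tell whether libraries of the same number share something. The summed level of the members was higher in replicate 1 in every group. With the replicate block the count of members called was 0 in all comparisons, and 3 members met the study's rule in AP_1h against RA_0.

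DESeq2 called 1 member in AP_34d against RA_0 (Cd163, 2.26), and with libraries left out the count in PLA_34d against RA_0 was 0 to 1 (Lyz2, 3.20). Members meeting the study's rule in AP_1h against RA_0 numbered 0 with a pseudocount of 4 or without TMM, 1 without the filter or with limma-voom, and 0 to 5 with a library left out. In PLA_34d against RA_0 edgeR and DESeq2 gave 1 each and left-out libraries 0 to 4. In AP_1h against PLA_1h DESeq2 gave 3, the groups alone 1 and left-out libraries 0 to 2. In AP_34d against PLA_34d DESeq2 gave 2 and left-out libraries 1 to 4, and in AP_34d against RA_0 the groups alone gave 2.

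With a library left out, the members' median log2 change was -0.064 to 1.55 in AP_1h against RA_0, -0.23 to 1.35 in PLA_34d against RA_0, -0.025 to 1.37 in AP_1h against PLA_1h and -1.36 to 0.22 for the interaction. Without PLA_34d replicate 1 the change reversed for Aif1 in PLA_34d against RA_0 (-0.0063, and up to 1.77 without replicate 2) and for Lyz2 in AP_34d against PLA_34d (0.59, and down to -2.57 without replicate 2). The lone library left in a group is assumed to vary like the others. The median r was 0.84 without TMM, 0.81 with the 20 most abundant transcripts left out, 0.19 without the 3 libraries high in C1q and 0.64 to 0.79 with a library left out. Without TMM the median of all transcripts shifted by 0.15 in AP_1h against RA_0 and 0.23 in PLA_34d against RA_0, and by -0.19 in AP_34d against PLA_34d.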
